A study of Arabidopsis thaliana with 12 samples.

Results

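CHLP (AT1G74470), CHLM (AT4G25080) and VTE6 (AT1G78620) are nuclear genes for chloroplast enzymes that make chlorophyll or reuse its phytol tail. They were taken as the features that the annotation of the array platform lists with exactly 1 gene, that gene being one of these. Each gene has 1 such feature, so they are 3 of the 3438 rows measured. Arabidopsis thaliana wild-type plants of the Landsberg ecotype had been kept for 48 hours under red light at 200 µE or under white light at 20 µE. Each light was read on 6 single-channel arrays. Colour and light level changed together, so their parts cannot be told apart. The labels name no tissue, plant age or pooling.

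Chlorophyll consists of a magnesium-containing ring and a long phytol tail. CHLM, the magnesium protoporphyrin IX methyltransferase, acts on the ring soon after magnesium has been inserted. CHLP, the geranylgeranyl reductase, makes the phytyl group from geranylgeranyl precursors and so supplies the tail for chlorophyll and for tocopherol (vitamin E). When chlorophyll is broken down, free phytol is released. VTE5 phosphorylates this phytol, and VTE6 adds a further phosphate, which gives the phytyl diphosphate used for tocopherol. CHLP thus stands for phytol supply and VTE6 for phytol reuse.

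Within each light, arrays 1 and 2, 3 and 4, and 5 and 6 were near-duplicates, with rank correlations of 0.91 to 0.989, against 0.641 to 0.821 between other arrays of the same light. The means of these pairs served as 3 samples per light. Nothing in the labels ties a pair to separate plants, so p-values measure the spread between these samples, which may be technical. Array medians of the deposited intensities ran from 0.233 to 0.471 in red and from 0.237 to 0.289 in white light, and 13.8% to 17.0% of features in red and 11.4% to 13.6% in white light were listed at 0. None of the 3 genes was at 0 on any array. Intensities below are quantile-normalized across the 12 arrays, in arbitrary units, unless called deposited. The number of arrays limits the precision.

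VTE6 had higher values in red light, CHLP slightly lower ones, and CHLM showed no common direction. The plot of intensities by array shows these patterns. None of the 3 differences passed an adjusted p of 0.05 (limma on the pair means, Benjamini-Hochberg over all features), a threshold that 0.116% of the 3438 features passed.

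**Figure D1:**
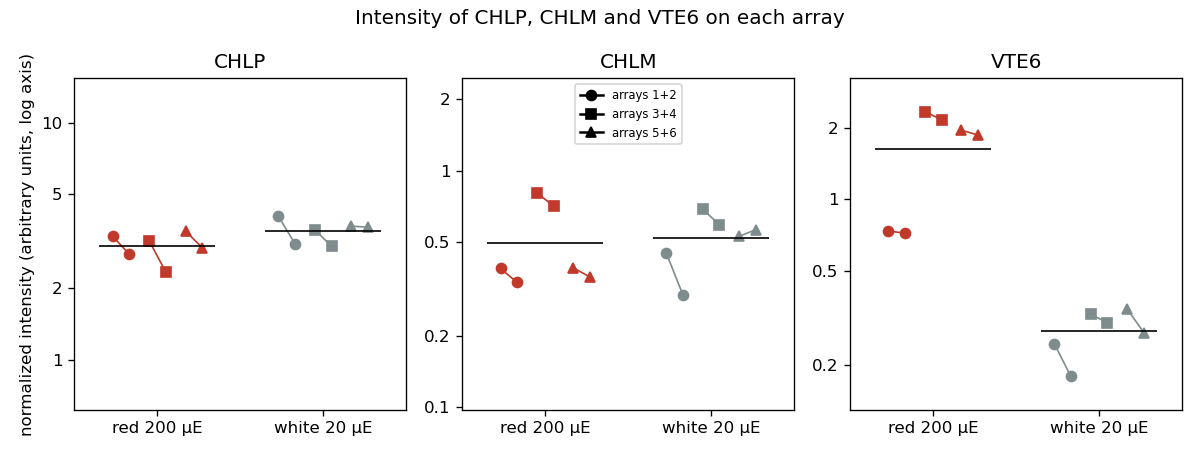
Normalized intensity (arbitrary units, log axis) of CHLP, CHLM and VTE6 on the 6 red 200 µE and 6 white 20 µE arrays; a line joins the arrays of a near-duplicate pair and the black bar is the mean of 3 pair means. VTE6 lies higher on every red array than on any white array, while the arrays of the 2 lights overlap for CHLP and CHLM; each panel has its own scale, and levels are not to be compared between genes.

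VTE6, the reuse gene, had pair means of 0.728, 2.26 and 1.91 in red light, against 0.213, 0.315 and 0.309 in white light. All 6 red arrays (0.721 to 2.35) were above all 6 white arrays (0.179 to 0.344), a separation in this direction that 4.71% of features showed. Red arrays 1 and 2 were the lowest of the red arrays, with 0.735 and 0.721, and the same numbers were also the lowest of the white arrays.

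The means of VTE6 were 1.63 ± 0.804 under red and 0.279 ± 0.0574 under white light (SD over 3 pair means each). The fitted log2 difference was 2.19 ± 0.47 (SE, 95% interval 0.97 to 3.42), or 4.58-fold (limma, adjusted p = 0.18). A difference at least this large and positive was found for 28 features (0.814%). The differences of same-numbered pairs were 1.54, 2.63 and 2.42, so the size varied more than the direction. Near-duplicate arrays differed by 0.02 to 0.35 on the log2 scale for VTE6. In a limma fit of single arrays that kept each near-duplicate pair as a random block, VTE6 passed the threshold (adjusted p = 0.0136), as 3.14% of features did. That fit used 1 correlation for all features and took its degrees of freedom from 12 arrays, so its p-values may be too small. VTE6 also passed with 12 separate arrays (limma, adjusted p = 0.00125), as 16.6% of features did. Those p-values are too small, since near-duplicates then count as independent. CHLP and CHLM passed in neither. Without 1 near-duplicate pair, the VTE6 difference ran from 1.86 (without red arrays 5 and 6) to 2.76 (without red arrays 1 and 2).

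The rank of a feature on its array does not depend on the scaling of that array. Quantile-normalized intensities follow this rank, so the shares below restate the values above and are no separate check. On average VTE6 was brighter than 88.6% ± 9.73 of the features of an array under red and 45.1% ± 6.93 under white light (SD, n = 3). The pair means of this share were 77.3%, 94.8% and 93.5% in red, against 37.1%, 49.4% and 48.7% in white light. VTE6 was thus in the brighter part of the features under red light and around the middle under white light, without overlap.

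CHLP, the supply gene, had pair means of 3.06, 2.76 and 3.23 in red light, against 3.55, 3.27 and 3.64 in white light. Every red pair mean lay below every white pair mean, by a narrow margin, a separation in this direction that 9.08% of features showed. Single arrays overlapped, with 2.35 to 3.49 in red and 3.01 to 4.03 in white light.

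The means of CHLP were 3.02 ± 0.235 under red and 3.49 ± 0.197 under white light (SD, n = 3). The log2 difference was -0.21 ± 0.10 (SE, 95% interval -0.46 to 0.04), or 0.865-fold (limma, adjusted p = 0.443). The pair differences of -0.20, -0.25 and -0.18 were close to each other. Near-duplicate arrays of CHLP differed by up to 0.42, with a median of 0.24, which is as large as the difference between the lights. The spread of CHLP over pair means was among the smallest, as 8.78% of features had an equal or smaller one, counting 173 features at 0 on every array. The interval depended on how limma pooled the spread of other features. Without the dimmest 25% of features it was -1.07 to 0.65 at the same difference (limma, adjusted p = 0.844).

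The sign of the CHLP difference rested on the scaling of the arrays. In deposited intensities CHLP had pair means of 3.07, 2.84 and 4.80 in red light, against 1.82, 2.56 and 4.27 in white light. Each red pair was then above the white pair of the same number, and the fitted difference was 0.35 (95% interval -0.68 to 1.38). On that scale the median over all features was 0.20, against -0.01 after quantile normalization, so CHLP was 0.15 above the median feature. By rank, CHLP was brighter than 96.3% ± 0.413 of the features of an array under red and 96.9% ± 0.211 under white light (SD, n = 3). CHLP was near the top of every array in both lights, and the direction of its small difference changed with the scale.

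CHLM, the methyltransferase of the chlorophyll ring, had pair means of 0.362, 0.757 and 0.372 in red light, against 0.373, 0.638 and 0.546 in white light. The white pairs lay within the range of the red pairs, and arrays 3 and 4 were the brightest in both. Its means were 0.497 ± 0.225 under red and 0.519 ± 0.134 under white light (SD, n = 3). The log2 difference was -0.09 ± 0.35 (SE, limma, adjusted p = 0.988). Its 95% interval of -1.01 to 0.82 spans folds from 0.497 to 1.77, so a moderate change in either direction was not detectable with these arrays. The pair differences of -0.02, 0.23 and -0.49 went both ways. On the deposited scale the difference of CHLM was 0.32 (95% interval -1.07 to 1.72), which is 0.13 above the median feature.

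**Figure D2:**
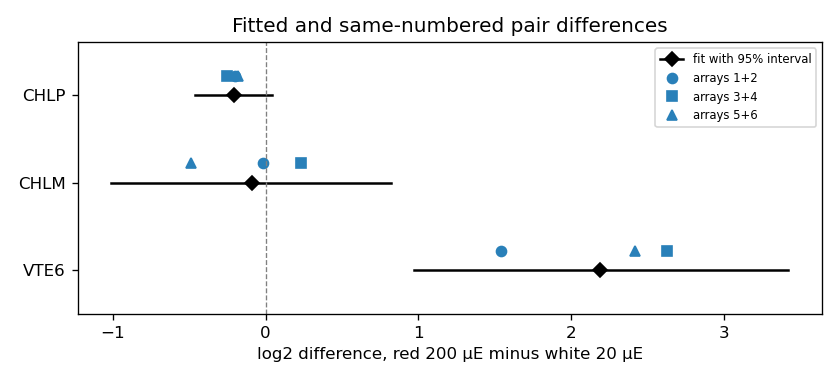
Log2 difference (red 200 µE minus white 20 µE) of CHLP, CHLM and VTE6, as the limma fit with its 95% interval (black) and for the 3 same-numbered pairs (blue). The interval of VTE6, 0.97 to 3.42, lies above 0, while those of CHLP and CHLM include 0.

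**Figure D3:**
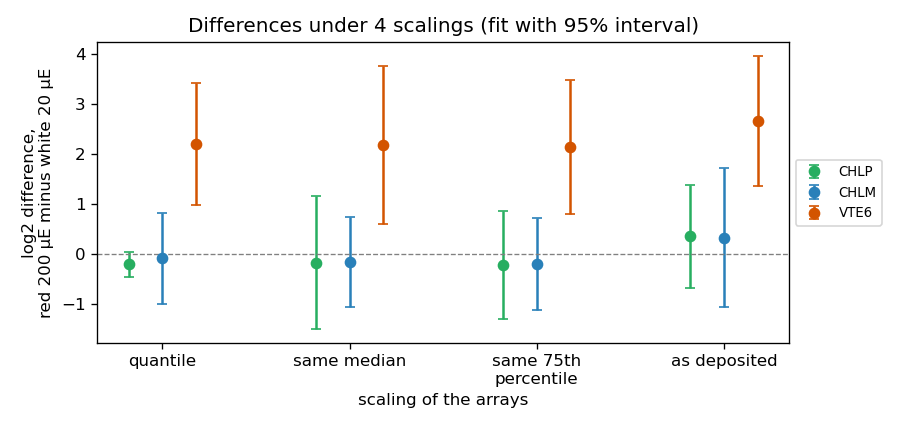
Log2 difference (red 200 µE minus white 20 µE, with 95% interval) of the 3 genes under 4 scalings of the arrays. VTE6 stays between 2.14 and 2.66, while CHLP and CHLM are below 0 under 3 scalings and above 0 on the deposited scale.

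Phytol reuse was set against phytol supply through the ratio of VTE6 to CHLP on the same array. A factor common to an array cancels in this ratio, up to the pseudocount. Because different probes have different brightness, each ratio is given on the log2 scale relative to its mean over the white pairs, and only its change between the lights is read.

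The VTE6 to CHLP ratio was 1.42, 3.13 and 2.66 in the red pairs, against -0.32, 0.25 and 0.07 in the white pairs. Every red array (1.31 to 3.29) was above every white array (-0.34 to 0.32). VTE6 alone already had this separation, as 4.71% of features did, so it is no further result. The ratio was thus 2.40 ± 0.54 higher in red light (SE, n = 3 pair means each), a 5.29-fold shift of the VTE6 signal relative to the CHLP signal. Most of this shift was the VTE6 difference of 2.19, next to -0.21 for CHLP. Phytol and its use were not measured. The exact two-sided permutation test gave p = 0.1, which is as small as 3 samples against 3 allow, and 0.15 after adjustment over the 3 ratios compared. Blocked by pair number, the test over 3 pairs gave an exact p = 0.25 (adjusted p = 0.375), the smallest that 3 pairs allow. On the deposited scale the shift was 2.31, with red arrays at 1.60 to 3.40 and white arrays at -0.70 to 0.41. Quantile normalization is not a factor per array, so single ratios moved between the 2 scales. Both scales read the same arrays, so this is no separate support.

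The VTE6 to CHLM ratio behaved alike, with 1.66, 2.26 and 2.94 in the red pairs, against 0.10, -0.14 and 0.04 in the white pairs. Its difference was 2.29 ± 0.38 (SE, exact permutation p = 0.1, adjusted p = 0.15). The CHLP to CHLM ratio, between the genes for tail and ring, was 0.24, -0.87 and 0.28 in the red pairs, against 0.42, -0.39 and -0.03 in the white pairs. The lights overlapped, and the difference was -0.12 ± 0.44 (SE, exact permutation p = 0.8, adjusted p = 0.8). These ratios share their members and are not independent of each other.

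**Figure D4:**
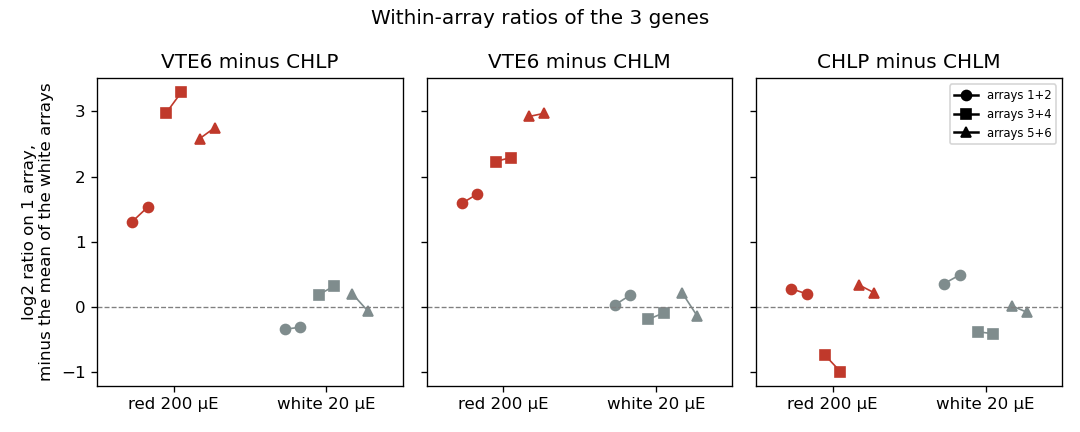
Log2 ratio of 2 of the genes on each array, minus the mean of the white arrays; red 200 µE left, white 20 µE right, with lines joining near-duplicates. Both ratios with VTE6 separate the lights, with VTE6 to CHLP at 1.31 to 3.29 on red and -0.34 to 0.32 on white arrays, and CHLP to CHLM does not.

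Few other genes of these pathways could be read. The lists for chlorophyll and tetrapyrrole synthesis, chlorophyll breakdown, tocopherol and phytol metabolism, prenyl supply and light regulation held 84 genes, and 4 of them are on features named with 1 gene. None was on the breakdown, prenyl supply or regulator lists, and the phytol kinase gene VTE5 was not among the 4. In chlorophyll and tetrapyrrole synthesis, 0 of the 3 measured genes (CHLP, CHLM and HEMA3) passed the threshold in either direction. Their median log2 difference of -0.09, against -0.01 over all features, is the value of CHLM itself and no further result.

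The fourth gene was HEMA3 (AT2G31250), an isoform of glutamyl-tRNA reductase, the enzyme that commits glutamate to tetrapyrrole synthesis. HEMA3 had pair means of 0.795, 1.69 and 0.912 in red light, against 0.299, 0.572 and 0.375 in white light. The lights did not overlap, and arrays 3 and 4 were the brightest in both. Its log2 difference was 1.33 ± 0.38 (SE, limma, adjusted p = 0.247), with pair differences of 1.3, 1.48 and 1.21. The deposited scale gave 1.76. Signal from the other HEMA genes cannot be told apart without the probe sequence.

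A further 4 features are each listed with 2 genes, both in chlorophyll and tetrapyrrole synthesis, and are given by number. Feature 525 had pair means of 0.37, 0.482 and 0.413 in red light, against 0.154, 0.166 and 0.0962 in white light. Its log2 difference was 1.31 ± 0.18 (SE, limma, adjusted p = 0.0995). Feature 2801 had 0.455, 0.271 and 0.355 in red light, against 0.132, 0.107 and 0.109 in white light, a log2 difference of 1.25 ± 0.19 (SE, limma, adjusted p = 0.11). Both are dim in white light, and with the pseudocount multiplied by 4 their differences were 0.80 and 0.74. Feature 613, listed with the same genes as feature 525, differed by 0.43 (limma, adjusted p = 0.369), and feature 2077 by -0.05 (limma, adjusted p = 1). Of HEMA3 and these 4 features, 4 had every red pair mean above every white one, a separation in this direction that 8.41% of all features showed, and none passed the threshold. The 4 features were added after their values were seen, and features 525 and 613 share their genes, so nothing is read from this count.

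**Figure D5:**
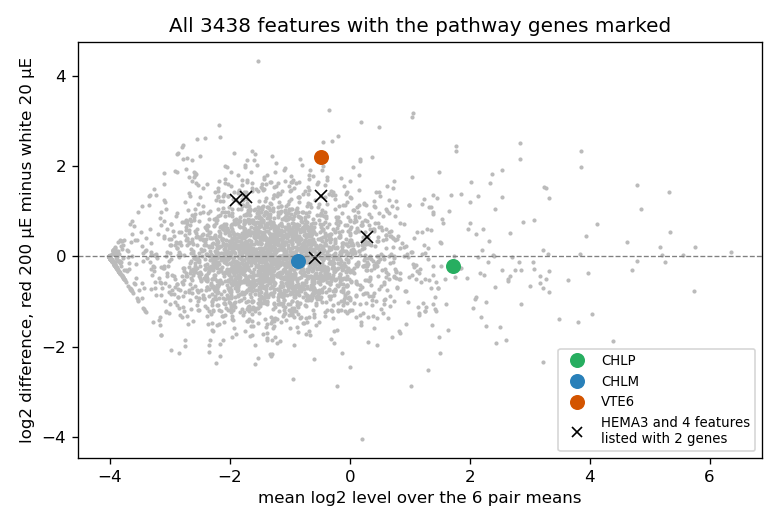
Log2 difference (red 200 µE minus white 20 µE) of all 3438 features against their mean log2 level, with CHLP, CHLM, VTE6 (circles) and the other readable pathway features (crosses) marked. VTE6, at 2.19, lies at the upper edge of the cloud, CHLP and CHLM lie near 0, and 4 of the 5 crosses lie above 0.

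The genes most alike in pattern were sought among 508 other features named with 1 gene and above 0 on every array, by Pearson's r of the log2 values over the 6 pair means. Such an r reflects the light and the array pair together and is given as a description. The closest to VTE6 were PSBW (r = 0.981), the chromatin remodelling gene chr31 (AT1G05490, r = 0.956) and PSBY (r = 0.935). PSBW and PSBY encode small proteins of photosystem II. PSBW had pair means of 26.8, 69.5 and 60.4 in red light, against 16.2, 18.4 and 13.8 in white light, so red pair 1 was again the lowest of the red pairs. PSBW differed by 1.58 on the log2 scale (limma, adjusted p = 0.218), chr31 by 2.28 and PSBY by 0.74. The most opposed pattern was that of AT3G09490 (r = -0.969), with a difference of -1.22.

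The closest to CHLP were AT5G19940 (r = 0.983), AT3G47100 (r = 0.961) and AT1G32730 (r = 0.959), with log2 differences of -1.01, -1.50 and -1.04. These differences were larger than the -0.21 of CHLP, since r compares the shape of a pattern and not its size. The most opposed pattern was that of AT4G29890 (r = -0.979, difference 1.0). For CHLM the closest were AT5G59400 (r = 0.966), AT5G62550 (r = 0.901) and AT3G50270 (r = 0.893), with differences of 0.02, -0.04 and -0.36. AT5G04600 was the most opposed (r = -0.905, difference -0.24), and its red pair 2 was dim, at 0.026. Among the members, r was -0.791 between CHLP and VTE6, -0.388 between CHLP and CHLM and 0.167 between CHLM and VTE6.

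Markers of green tissue could be read for 3 of 11 genes, namely PSBW, PSAN and LHCB1.5, and none of the 3 was at 0 on any array. They did not move together, with log2 differences of 1.58 for PSBW, -0.80 for LHCB1.5 and -0.70 for PSAN and a median of -0.70, and 0 of the 3 passed the threshold. Their summed intensity was 35 to 78.5 in the red pairs and 25.8 to 41.6 in the white pairs, a sum over probes of different brightness. Of the 4 root and 4 senescence markers none could be read. The part of tissue make-up in the VTE6 difference was not tested, and fewer cells of a type and less RNA per cell cannot be told apart in such samples.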

How the data were processed

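The deposited table holds 1 linear intensity per feature and array, from 0 to 100. The authors' background correction and scaling of these intensities are not given in the sources used here. Of 3439 features, 692 are listed with 1 gene, 870 with several and 1877 are not listed and stay unnamed. Gene identifiers of 690 of the 692 were found in RefSeq (assembly TAIR10.1). The labels name no build, so no coordinates are given.

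Intensities were quantile-normalized over 12 arrays (tied zeros share the mean of their ranks) and transformed as log2(intensity + 0.0616), the pseudocount being percentile 5 of the positive normalized values. It understates changes of dim features. Near-duplicate arrays were averaged on the log2 scale, and printed intensities are arithmetic means. Features of the same gene were averaged, leaving 3438 rows. Differences, red minus white, come from limma 3.58.1 under R 4.3.3 (lmFit, eBayes, 4 residual degrees of freedom, Benjamini-Hochberg adjusted p under 0.05). The fit was also run on simulated data with independent noise, without the correlation between same-numbered pairs given below. That run is a check of the code and not of the calls. Ratios of 2 genes were tested by exact permutation of 3 against 3. Deviations from the light means correlated at 0.129, 0.472 and 0.381 between same-numbered pairs, above the limit of 0.1. Pairing by number rests on this check and not on the labels. It was used only in the alternatives blocked by pair number. The main fit and the main permutation test did not pair the samples.

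Alternatives changed the scaling, pseudocount, averaging, block, filter, prior, weights and arrays. Named were the members, every list gene on a 1-gene feature, and per member the 3 closest and the most opposed patterns. The 4 features listed with 2 genes were added after their values were seen. Members and lists were chosen with earlier results of these data known.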

Additional observations from a re-analysis of the deposited data

How the results depend on the processing

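VTE6 stayed positive under all 32 alternatives (1.74 to 2.76). VTE6 passed the threshold with 12 arrays as separate samples (2.19, limma, adjusted p = 0.00125), where near-duplicates count as independent. It also passed with them as a random block (2.19), where the p-values may be too small. The VTE6 to CHLP and VTE6 to CHLM ratios ran from 1.93 to 2.98 and from 1.80 to 2.68 over 26 alternatives. With 12 separate arrays these were 2.40 and 2.29 (exact permutation, adjusted p = 0.00325 for both), with near-duplicates again taken as independent, and with the replicate block the same values had an exact p = 0.25 (adjusted p = 0.375 for both), the smallest that 3 pairs allow. CHLP was -0.28 to -0.14 without 1 array and -0.26 to -0.15 without 1 near-duplicate pair, and turned to 0.35 on the deposited scale. CHLM turned to 0.32 on that scale, to 0.09 without arrays 5 and 6 of both lights (chosen after seeing the data), and ran from -0.40 to 0.07 without 1 near-duplicate pair (0.07, 0.05 and 0.06 without red 1 and 2, red 5 and 6, and white 3 and 4). The CHLP to CHLM ratio turned to 0.03 on the deposited scale and ran from -0.32 to 0.26 without 1 pair (0.26 without red 3 and 4, 0.10 without white 1 and 2). The causes of these turns were not tested. With the pair number as a replicate block, no member's call changed (limma, adjusted p = 0.157 for VTE6, 0.288 for CHLP and 0.859 for CHLM).

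The count of 4 features past the threshold was 27 on the deposited scale, 1 with arrays scaled to the same median, 7 to the same 75th percentile, 2 with the pseudocount multiplied by 4, 2 without the dimmest 25%, 1 without features at 0 throughout a light, 1 with a prior that was trended and robust, 108 with the random block, 97 with array weights, 572 with 12 separate arrays, and 0 with the replicate block (limma, 648 at an unadjusted p under 0.05, against 473 without it). It was 0 without arrays 5 and 6 of both lights, 0 to 5 without 1 array (0 without white array 1, 2 without white array 5) and 0 to 2 without 1 near-duplicate pair, with 2 only without white arrays 5 and 6. Signal over local background is unknown.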
